A study of Mus musculus with 6 samples.

Results

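Schwann cells are the glia of peripheral nerves, and nerves enter the tooth through the apical tissue where the root forms. The 8 genes described here are known for their roles in these cells: the regulators Sox10 and Egr2, the myelin and membrane genes Mbp, Pmp22 and Mal, the receptors Erbb3 and Ngfr, and the calcium-binding protein gene S100b. They were taken by symbol from the deposited table of estimated counts, and all 8 were among its 22287 genes and passed the filter on low counts. RNA sequencing compared the growing tip of the mandibular first molar between mutant and control C57BL/6 mouse pups at postnatal day 7.5. Mutants carried Gli1-CreER and Arid1a fl/fl (3 libraries, replicates 3, 4 and 5), and controls carried Arid1a fl/fl without Cre (3 libraries, replicates 2, 3 and 5). Tamoxifen was given to the pups of both groups at postnatal day 3.5, per the labels' protocols. CreER is driven by Gli1, a gene active in Hedgehog-responsive cells, and which cells lost Arid1a was not measured. No group carried CreER without the Arid1a fl/fl alleles, so an effect of CreER and one of Arid1a loss cannot be told apart.

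Schwann cells follow axons into tissues and either wrap larger axons in myelin or ensheath groups of smaller ones. Axonal neuregulin is received by the receptor pair of Erbb2 and Erbb3, Sox10 is needed throughout the lineage, and Sox10 together with Egr2 switches on the genes of compact myelin. BAF chromatin remodelling complexes, of which Arid1a encodes a subunit, are known to work with Sox10 during Schwann cell differentiation. The dental pulp of the mouse also receives many thin sensory fibres, whose Schwann cells make little myelin.

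The libraries held 20453247 to 24255352 estimated gene counts, and levels are CPM, counts scaled to library size after TMM adjustment. Arid1a, the targeted gene, averaged 128 ± 7.36 CPM in mutants and 205 ± 3.96 CPM in controls (SD, n = 3 each). Its adjusted p was 0.0129 in edgeR's quasi-likelihood test, 0.0506 without control replicate 2 and 0.0529 without control replicate 3. Tooth markers were abundant in both groups: the 6 odontoblast markers summed to 42050 to 51793 CPM in mutants and 48671 to 50075 CPM in controls. Most of that sum was the collagen gene Col1a1, which averaged 38109 CPM in mutants and 38957 CPM in controls. Dspp, the next most abundant of the 6, averaged 8216 CPM in mutants and 8970 CPM in controls. Whether teeth were pooled within a library is not stated, and the p-values therefore describe spread between libraries that may in part be technical.

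None of the 8 genes passed the test across all genes at an adjusted p under 0.05 (0 of 8, edgeR quasi-likelihood test). Of all 17305 genes tested, 1.86% passed. At an unadjusted p under 0.05 the count was 6 of 8, of which 4 were higher and 2 lower in mutants. Of all tested genes, 15.0% met that mark, 7.13% higher and 7.83% lower. The 8 genes were chosen with earlier results of these data known, so setting them beside all genes is a description. For Sox10, Egr2, Mal and S100b the 3 mutant libraries all lay above the 3 control libraries. For Mbp and Pmp22 the 3 mutant libraries all lay below the controls. Of all tested genes, 21.3% had groups that do not overlap, 10.6% higher and 10.8% lower in mutants. Erbb3 and Ngfr overlapped between the groups. The median log2 fold change (mutant minus control) of the 8 genes was 0.32, against 0.01 for all tested genes. In tissue RNA, a change in the number of Schwann cells and a change in RNA per cell cannot be told apart.

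**Figure D1:**
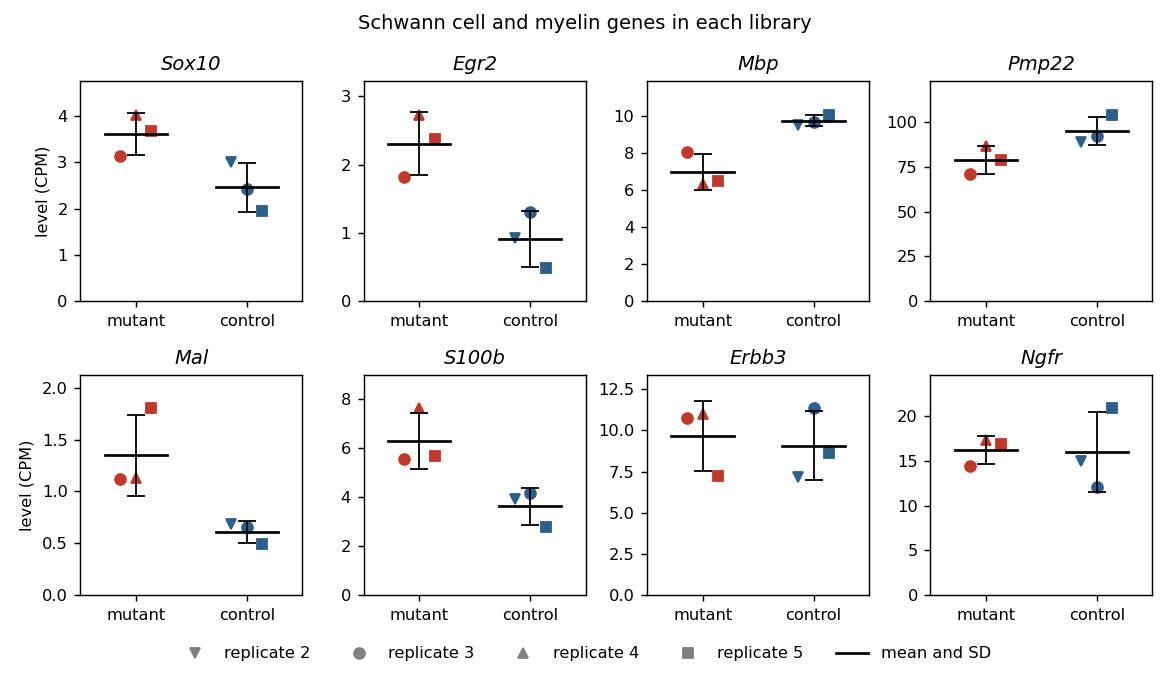
Level of each of the 8 genes in CPM (vertical axes start at 0) in the 3 mutant and 3 control libraries, with 1 point per library, its shape giving the replicate number, and the mean and SD in black. Sox10, Egr2, Mal and S100b sit higher and Mbp and Pmp22 lower in all mutant libraries, while Erbb3 and Ngfr overlap.

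Scaled by exon length in GENCODE M21, Pmp22 was by far the most abundant of the 8 in both groups. Its level was 33.5 ± 3.24 CPM per kb in mutants and 40.4 ± 3.36 CPM per kb in controls (SD, n = 3 each). Ngfr came next, at 4.70 ± 0.444 CPM per kb in mutants and 4.64 ± 1.29 in controls, and in the mutants it overlapped in spread with S100b at 4.25 ± 0.779. Erbb3, Sox10 and Mbp lay between 0.809 and 1.60 CPM per kb in either group. Egr2 and Mal were the lowest, with 0.679 ± 0.136 and 0.486 ± 0.140 CPM per kb in mutants and 0.267 ± 0.121 and 0.219 ± 0.0374 CPM per kb in controls. Pmp22 is known to be expressed by fibroblasts and epithelia as well as by Schwann cells, and these counts do not separate its sources.

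Sox10 encodes the SoxE transcription factor that defines the Schwann cell lineage and is also used by melanocytes. It occupies 79154908 to 79165240 of chromosome 15 (mm10, minus strand, protein-coding). Its level was 3.13, 4.03 and 3.69 CPM in mutant replicates 3, 4 and 5, against 3.02, 2.43 and 1.96 CPM in control replicates 2, 3 and 5. The lowest mutant library lay only 0.115 CPM above the highest control library. The log2 fold change was 0.55 (SE 0.22) with an adjusted p of 0.287. The counts behind these levels were 258 reads summed over mutants and 150 over controls.

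Egr2 (Krox20) encodes the zinc finger factor that drives myelin gene expression, and it also responds to growth signals in other cells. It occupies 67535475 to 67542188 of chromosome 10 (plus strand). It had 1.82, 2.73 and 2.37 CPM in mutant replicates 3, 4 and 5, against 0.924, 1.31 and 0.490 CPM in control replicates 2, 3 and 5. Every mutant library was above every control library, and the log2 fold change of 1.32 (SE 0.36) was the largest of the 8 genes. The adjusted p was 0.124 in edgeR and 0.0458 in DESeq2, and it ranged up to 0.459 over 15 alternative settings. On the authors' normalized table the difference was 0.79 on the log2(value + 1) scale. The counts were low: control replicate 5 held 9 reads, with an exact Poisson 95% interval of 4.12 to 17.1 that covers counting error only, and mutant replicate 4 held 63, with an interval of 48.4 to 80.6.

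Mal encodes a small membrane protein of myelin and of epithelial apical membranes. Its position is 127633226 to 127656695 on chromosome 2 (minus strand). It had 1.12, 1.13 and 1.80 CPM in mutant replicates 3, 4 and 5, against 0.681, 0.655 and 0.490 CPM in control replicates 2, 3 and 5. All mutant libraries were above the controls, with mutant replicate 5 the highest. The log2 fold change was 1.13 (SE 0.32) with an adjusted p of 0.139, and it rested on 96 reads over mutants and 37 over controls. On the authors' normalized table the difference was 0.52.

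S100b encodes a calcium-binding protein widely used as a Schwann cell marker, and cartilage cells express it too. The gene covers 76253853 to 76261159 of chromosome 10 (plus strand). It had 5.56, 7.63 and 5.71 CPM in mutant replicates 3, 4 and 5, against 3.94, 4.17 and 2.78 CPM in control replicates 2, 3 and 5. The groups did not overlap, and mutant replicate 4 stood above the other libraries. The log2 fold change was 0.79 (SE 0.21), with an adjusted p of 0.119 in edgeR and 0.0420 in DESeq2, and of up to 0.432 over the alternative settings. Of 5 chondrocyte markers, 4 were analysed, and they summed to 44.7 to 72.5 CPM in mutants and 26.2 to 42.8 CPM in controls; their part in the S100b difference was not tested.

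Mbp encodes myelin basic protein, which holds the cytoplasmic faces of the myelin membrane together. Its gene covers 82475146 to 82585637 of chromosome 18 (plus strand). The same locus makes Golli transcripts in cells without myelin, and the gene-level counts do not separate them. Mbp had 8.08, 6.33 and 6.5 CPM in mutant replicates 3, 4 and 5, against 9.48, 9.69 and 10.1 CPM in control replicates 2, 3 and 5. The controls were close together, and each mutant library was below them. Its log2 fold change was -0.48 (SE 0.13) with an adjusted p of 0.128. With libraries scaled to their totals alone it was -0.28, while the median of all genes moved to 0.21 in place of 0.01.

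Pmp22 encodes a tetraspan protein of compact myelin that is also known as a growth arrest gene of fibroblasts. The gene covers 63128982 to 63159547 of chromosome 11 (plus strand). It had 71.2, 86.5 and 78.7 CPM in mutant replicates 3, 4 and 5, against 89.0, 92.1 and 104 CPM in control replicates 2, 3 and 5. The groups did not overlap, although mutant replicate 4 came within 2.56 CPM of the lowest control. The log2 fold change was -0.27 (SE 0.10) with an adjusted p of 0.233. This difference depended on scaling: with library totals alone it was -0.06, against that same median of 0.21, and the summed reads were 5627 in mutants and 5709 in controls.

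The upstream sequences of 3 genes that were higher in all mutant libraries and of Pmp22, which was lower, are shown so that genes with opposite differences can be compared. They are the 250 bases before the RefSeq start nearest to the deposited gene start (GRCm38.p6, 5′ to 3′). Capitals mark matches on either strand to the Sox-type words ACAAT and ACAAAG or the Egr-type word GNGGGCG, which is contained in the longer Egr-type word GCGNGGGCG.
Egr2, chr10:67535249-67535498, plus strand: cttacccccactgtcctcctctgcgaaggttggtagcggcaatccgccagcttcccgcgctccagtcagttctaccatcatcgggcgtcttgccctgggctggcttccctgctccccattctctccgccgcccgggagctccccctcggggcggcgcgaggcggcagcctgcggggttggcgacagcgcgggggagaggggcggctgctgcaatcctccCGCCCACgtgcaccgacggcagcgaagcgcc
Mal, chr2:127656696-127656945, minus strand: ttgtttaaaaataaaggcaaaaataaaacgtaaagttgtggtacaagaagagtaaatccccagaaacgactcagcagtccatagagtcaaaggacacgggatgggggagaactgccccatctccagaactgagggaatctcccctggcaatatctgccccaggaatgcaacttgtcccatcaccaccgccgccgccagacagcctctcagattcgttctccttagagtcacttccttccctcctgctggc
S100b, chr10:76253586-76253835, plus strand: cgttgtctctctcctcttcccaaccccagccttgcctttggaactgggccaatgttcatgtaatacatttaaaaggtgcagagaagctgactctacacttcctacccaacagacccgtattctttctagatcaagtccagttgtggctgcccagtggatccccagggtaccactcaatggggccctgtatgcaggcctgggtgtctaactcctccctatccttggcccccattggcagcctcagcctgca
Pmp22, chr11:63128732-63128981, plus strand: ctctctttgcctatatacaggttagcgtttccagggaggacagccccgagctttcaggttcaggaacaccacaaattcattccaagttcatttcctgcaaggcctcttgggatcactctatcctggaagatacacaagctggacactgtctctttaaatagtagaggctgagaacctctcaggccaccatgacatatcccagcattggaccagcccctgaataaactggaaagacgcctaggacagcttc
Egr2 had 1 match to GNGGGCG, and the other 3 windows had no match to any of these words. The choice of window matters: RefSeq gives 4 windows for Pmp22, of which 2 at later starts held 3 matches to GNGGGCG each, and the other 4 windows of Egr2 held none. The window of Ngfr, whose level overlapped between the groups, held 2 matches to GNGGGCG. Of all 32851 RefSeq windows of the same length, 28.3% held GNGGGCG, 4.70% held GCGNGGGCG, 27.7% held ACAAT and 16.5% held ACAAAG. The promoter table matched 5 of the 8 genes. A missing match says only that these letters are not in this window.

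Erbb3 and Ngfr are the receptors among the 8. Erbb3, the neuregulin receptor, covers 128567523 to 128589652 of chromosome 10 (minus strand) and is also expressed in epithelia. It had 10.7, 11.0 and 7.20 CPM in mutant replicates 3, 4 and 5, against 7.20, 11.3 and 8.65 CPM in control replicates 2, 3 and 5. The ranges covered each other, with a log2 fold change of 0.09 (SE 0.22) and an adjusted p of 0.896. Ngfr, the p75 neurotrophin receptor of immature and non-myelinating Schwann cells, covers 95568818 to 95587735 of chromosome 11 (minus strand) and is also known in dental mesenchyme. It had 14.5, 17.3 and 16.9 CPM in mutant replicates 3, 4 and 5, against 15.0, 12.1 and 20.8 CPM in control replicates 2, 3 and 5. The control libraries held both the lowest and the highest value. Its log2 fold change was 0.02 (SE 0.19) and its adjusted p was 0.976. The log2 fold change of Erbb3 was -0.013 without mutant replicate 4 and -0.048 without control replicate 2. That of Ngfr was -0.027 without mutant replicate 4, -0.011 without mutant replicate 5, -0.018 without control replicate 2 and -0.14 without control replicate 3.

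**Figure D2:**
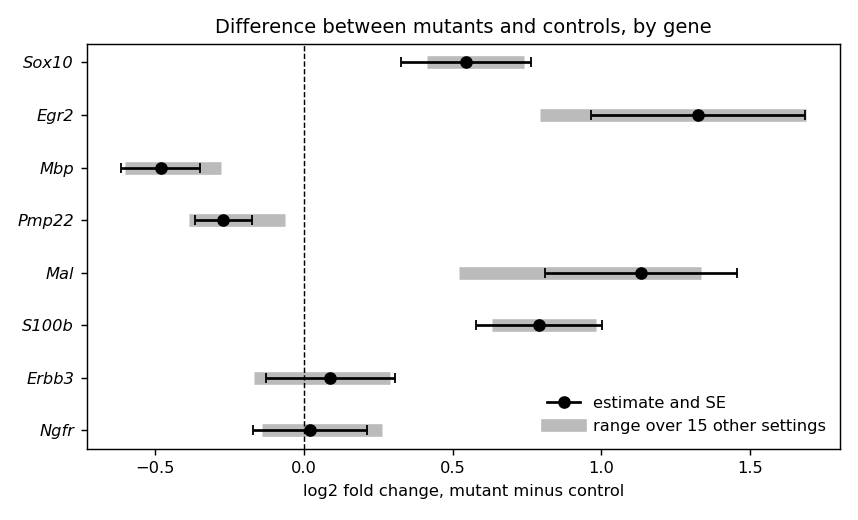
Log2 fold change (mutant minus control) of each gene, with the estimate and its SE in black and the range over 15 other settings of scaling, filter, tool, table and left-out library in grey. The ranges of Sox10, Egr2, Mal and S100b stay above 0, those of Mbp and Pmp22 stay below 0, and those of Erbb3 and Ngfr span 0.

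Ratios of counts between genes inside each library do not depend on how libraries are scaled. These ratios were chosen after the values were seen and carry no test. Sox10 was higher and Mbp and Pmp22 were lower in every mutant library. The separation of Mbp over Sox10 and Pmp22 over Sox10 follows from those levels and is no further result. Mbp over Sox10 was 2.58, 1.57 and 1.76 in mutant replicates 3, 4 and 5, against 3.15, 3.98 and 5.14 in control replicates 2, 3 and 5. Every mutant ratio was below every control ratio. Pmp22 over Sox10 was 22.7, 21.4 and 21.3 in mutant replicates 3, 4 and 5, against 29.5, 37.8 and 53.1 in control replicates 2, 3 and 5. The mutants were nearly uniform here and the controls were spread out. Egr2 over Sox10 averaged 0.634 ± 0.0493 in mutants and 0.365 ± 0.153 in controls (SD, n = 3 each), without overlap. Mal over Sox10 was higher without overlap, at 0.375 ± 0.105 in mutants and 0.248 ± 0.0218 in controls. S100b over Sox10 overlapped, at 1.74 ± 0.176 in mutants and 1.48 ± 0.209 in controls, and Erbb3 over Sox10 overlapped, at 2.70 ± 0.740 in mutants and 3.82 ± 1.25 in controls. Ngfr over Sox10 was 4.62, 4.28 and 4.58 in mutant replicates 3, 4 and 5, against 4.98, 4.98 and 10.6 in control replicates 2, 3 and 5. This ratio was lower in every mutant library although the level of Ngfr overlapped between the groups, and all of these ratios share Sox10 as the divisor. Sox10 itself was low, so these ratios carry its counting error.

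**Figure D3:**
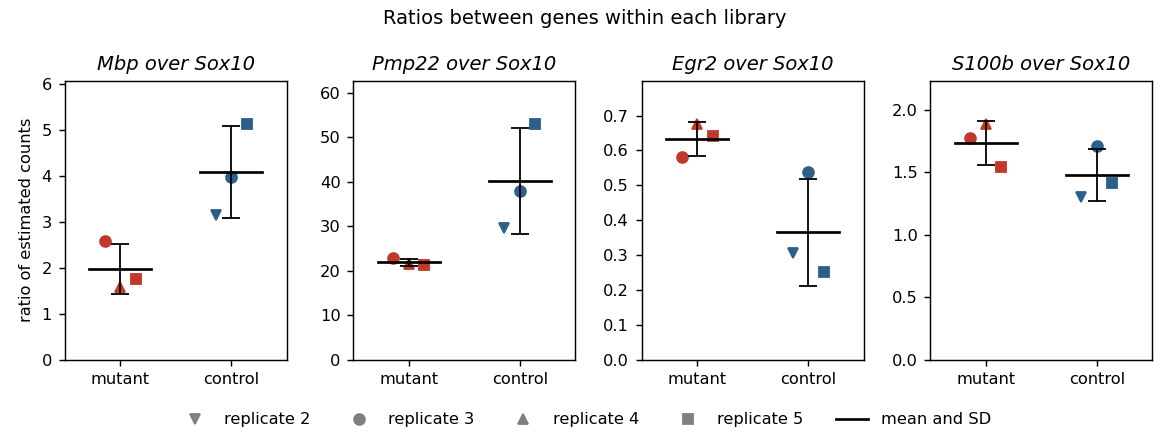
Ratio of estimated counts between pairs of genes within each library (vertical axes start at 0), with 1 point per library and the mean and SD in black. Mbp over Sox10 and Pmp22 over Sox10 are lower in all mutant libraries, as follows from the separate levels of these genes. Egr2 over Sox10 is higher, and S100b over Sox10 overlaps.

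Among 13 further genes of myelin structure, 10 were tested and none passed (0 of 10, edgeR quasi-likelihood test; 5 at an unadjusted p under 0.05, a mark met by 15.0% of all tested genes). Pmp2 and Pllp were filtered out as low, and Gjb1 was not analysed here. The list's median log2 fold change was 0.21. Cnp, an enzyme of non-compact myelin that many cells express, averaged 17.7 ± 0.358 CPM in mutants and 14.5 ± 0.726 CPM in controls (SD, n = 3 each; adjusted p = 0.184 in edgeR). Prx, the periaxin gene, and Drp2, which encodes its dystrophin-related partner, overlapped between the groups, with log2 fold changes of 0.12 and 0.17. With a library left out, Prx ranged from 0.057 to 0.19 and Drp2 from 0.044 to 0.32. Mag, an adhesion gene of the inner myelin membrane, was low and overlapped, at 0.423 ± 0.242 CPM in mutants and 0.408 ± 0.146 CPM in controls. Cldn19, a tight junction gene of the myelin sheath, had under 1 CPM in every library and a log2 fold change of 1.44 (adjusted p = 0.172). Gldn, which helps assemble nodes of Ranvier, averaged 17.6 ± 4.92 CPM in mutants and 10.8 ± 0.196 CPM in controls (adjusted p = 0.122, edgeR), and without mutant replicate 5 its log2 fold change was 0.46 in place of 0.70. Nfasc, a neurofascin gene of nodes and paranodes, was lower without overlap, at 13.6 ± 5.08 CPM in mutants and 29.4 ± 6.16 CPM in controls (log2 fold change -1.12, SE 0.27, adjusted p = 0.0984, edgeR). Ncmap, a gene of non-compact myelin, overlapped between the groups, at 6.28 ± 1.12 CPM in mutants and 8.52 ± 1.81 CPM in controls.

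Across all 52 further Schwann cell and myelin genes in 4 lists, 46 were tested, 1 rose, none fell and 45 did not pass. Of all tested genes, 0.659% were called higher. Of the 46, 35 had positive fold changes, with a median log2 fold change of 0.20, and 52.0% of all tested genes were positive. Groups did not overlap for 14 that were higher and 2 that were lower, where 10.6% of all tested genes were higher and 10.8% lower without overlap. The lists, too, were chosen with earlier results of these data known, so setting them beside all genes is a description. The riser was Adgrg6 (Gpr126), an adhesion receptor that Schwann cells need to begin myelination and that other tissues express. It had 25.9, 32.1 and 27.0 CPM in mutant replicates 3, 4 and 5, against 19.0, 18.3 and 19.1 CPM in control replicates 2, 3 and 5. The control libraries were nearly equal and all mutants were above them (log2 fold change 0.59, SE 0.10, adjusted p = 0.0363, edgeR). Its call was lost in 5 of the 6 fits that left out a library, where the adjusted p reached 0.145 without control replicate 3, and was kept without mutant replicate 3.

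Of the 15 genes for signals between axons and Schwann cells, 14 were tested, 1 rose (Adgrg6) and 13 did not pass. Over all tested genes, 0.659% were called higher. The median log2 fold change of this list was 0.06, with 10 positive and 4 negative fold changes. Nrg1, the neuregulin gene, was filtered out as low. Sort1, which encodes the neurotrophin co-receptor sortilin, averaged 120 ± 1.71 CPM in mutants and 114 ± 2.73 CPM in controls (log2 fold change 0.07). Bace1, a protease that cuts neuregulin, averaged 84.8 ± 6.76 CPM in mutants and 81.5 ± 3.62 CPM in controls, with overlap. Dhh, the Hedgehog ligand that Schwann cells make, was named after its values were seen. It had 0.812, 1.13 and 1.14 CPM in mutant replicates 3, 4 and 5, against 0.340, 0.515 and 0.708 CPM in control replicates 2, 3 and 5. Its groups did not overlap, and it did not pass (log2 fold change 0.98, SE 0.36, adjusted p = 0.241, edgeR). Bdnf, a neurotrophin gene also named after its values were seen, averaged 2.05 ± 0.259 CPM in mutants and 1.01 ± 0.150 CPM in controls (SD, n = 3 each; adjusted p = 0.0924, edgeR).

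Of 13 regulators of the lineage, 11 were tested and none passed (0 of 11, edgeR quasi-likelihood test; 1 at an unadjusted p under 0.05, against 15.0% of all tested genes). Pou3f2 and Pax3 were not analysed here. Their median log2 fold change was 0.26, and 10 of the 11 were positive. Zeb2, a repressor needed for Schwann cell maturation and expressed in many other cells, averaged 138 ± 23.1 CPM in mutants and 115 ± 12.5 CPM in controls, with overlap. Id2, an inhibitor of helix-loop-helix factors, also overlapped, at 113 ± 2.61 CPM in mutants and 110 ± 12.3 CPM in controls. The 11 genes of immature and non-myelinating Schwann cells were all tested, and none passed (0 of 11; 4 at an unadjusted p under 0.05, again against 15.0% of all tested genes). Their median was 0.36, with 7 positive and 4 negative fold changes. Ncam1, an adhesion gene of these cells and of mesenchyme, came nearest, at 79.9 ± 4.07 CPM in mutants and 62.2 ± 2.09 CPM in controls (SD, n = 3 each; log2 fold change 0.36, adjusted p = 0.0534, edgeR). It was called under 5 of 15 other settings. Cdh2, the N-cadherin gene, was lower without overlap, at 220 ± 12.6 CPM in mutants and 266 ± 24.8 CPM in controls (adjusted p = 0.203, edgeR). Gap43, a growth-associated gene of axons and Schwann cells named after its values were seen, averaged 14.3 ± 1.82 CPM in mutants and 9.61 ± 1.04 CPM in controls (adjusted p = 0.0915, edgeR). Cdh19, a cadherin gene typical of Schwann cell precursors named after its values were seen, averaged 9.74 ± 2.17 CPM in mutants and 6.08 ± 2.64 CPM in controls, with overlap.

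**Figure D4:**
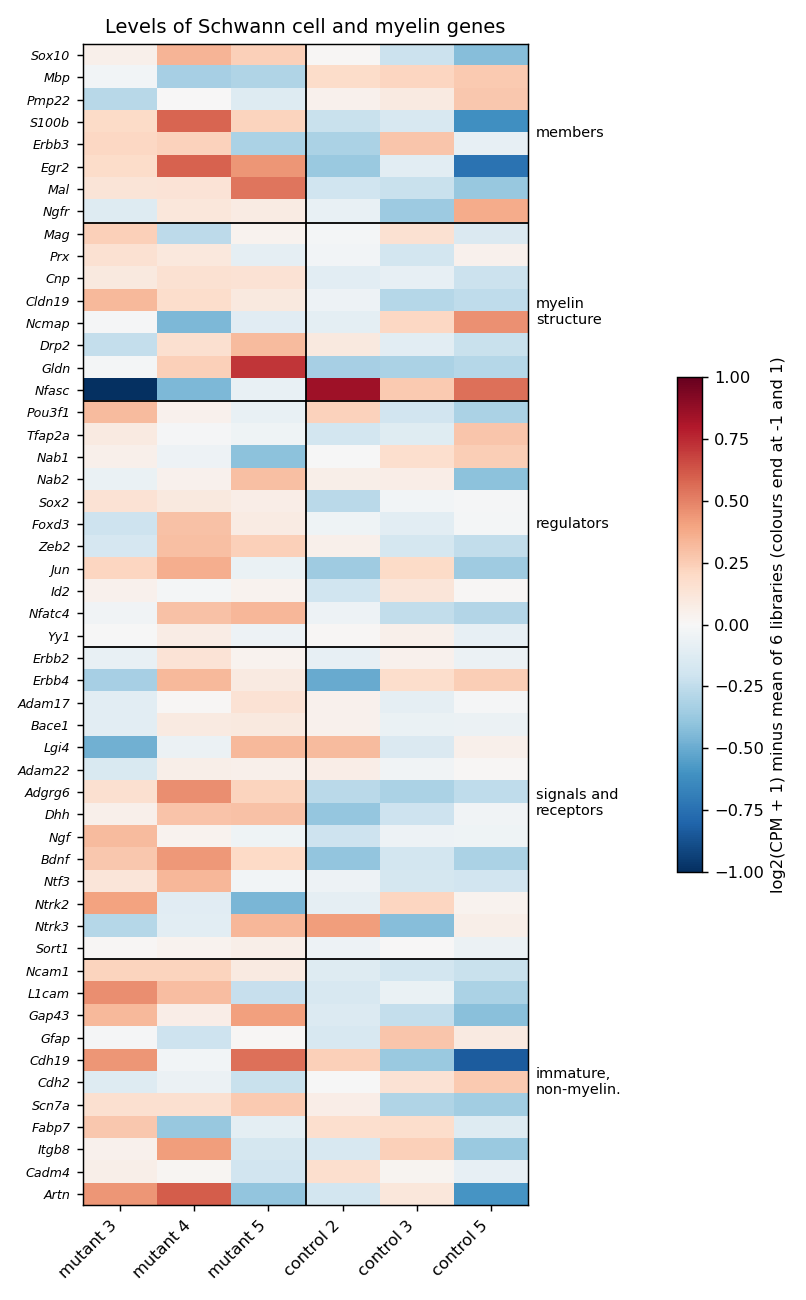
Heat map of log2(CPM + 1) minus its mean over the 6 libraries for the 8 genes and the tested genes reported from the 4 further lists (rows), with mutant libraries left of control libraries (columns). Sox10, S100b, Egr2, Mal and Adgrg6 are redder in the mutants, and Mbp, Pmp22, Nfasc and Cdh2 are redder in the controls.

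Myelin growth also needs sterols and fatty acids. Of 19 genes for their synthesis, 17 were tested, 1 fell, none rose and 16 did not pass, with a median log2 fold change of -0.06. Of all tested genes, 1.20% were called lower. The faller was Srebf2, the main transcriptional regulator of sterol synthesis, at 86.9 ± 2.43 CPM in mutants and 120 ± 3.84 CPM in controls (SD, n = 3 each; log2 fold change -0.47, SE 0.07, adjusted p = 0.0227, edgeR). Its call was lost with library totals alone (log2 fold change -0.27, adjusted p = 0.0810) and in 5 of the 6 fits that left out a library, with adjusted p of 0.0698 to 0.0879. The most abundant genes of the list were not called: Scd2, a fatty acid desaturase gene, averaged 625 ± 79.0 CPM in mutants and 686 ± 16.4 CPM in controls, and Fasn, the fatty acid synthase gene, 113 ± 13.5 CPM in mutants and 104 ± 14.8 CPM in controls, both with overlap.

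Paralogs show how far the differences were shared within gene families. Of 11 paralogs of the 8 genes, 9 were tested, 1 fell, none rose and 8 did not pass. Over all tested genes, 1.20% were called lower. The faller was Emp2, an epithelial membrane protein gene of the Pmp22 family. It had 64.9, 70.0 and 57.6 CPM in mutant replicates 3, 4 and 5, against 98.1, 108 and 133 CPM in control replicates 2, 3 and 5. All mutant libraries were well below the controls (log2 fold change -0.81, SE 0.13, adjusted p = 0.0277, edgeR), and the call was lost in each of the 6 fits that left out a library, with adjusted p of 0.0529 to 0.103. Emp1 had a log2 fold change of -0.27 (-0.18 without mutant replicate 5) and Emp3 of 0.17, and neither passed. Sox9, the SoxE gene of cartilage and dental epithelium, averaged 117 ± 22.0 CPM in mutants and 99.4 ± 22.7 CPM in controls. Mal2, an epithelial relative of Mal, averaged 2.08 ± 1.07 CPM in mutants and 4.34 ± 1.36 CPM in controls, the opposite direction to Mal, with overlap. Mall, another relative of Mal, averaged 4.63 ± 0.950 CPM in mutants and 4.63 ± 1.98 CPM in controls. Egfr, a relative of Erbb3, had a log2 fold change of 0.33 (adjusted p = 0.436), which was 0.17 without mutant replicate 3. Egr1, an immediate early relative of Egr2, had 53.1, 34.5 and 21.2 CPM in mutant replicates 3, 4 and 5, against 17.4, 20.3 and 227 CPM in control replicates 2, 3 and 5. Control replicate 5, the highest for Egr1, was the lowest for Egr2, and without it the log2 fold change of Egr1 was 0.96 in place of -1.28. Egr3 averaged 23.1 ± 4.85 CPM in mutants and 24.4 ± 4.07 CPM in controls, with overlap.

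Profiles over the 6 libraries were compared with that of Sox10 by the root mean square difference of centred log2(CPM + 1) values, among 15479 genes of at least 1 CPM on average. The 5 nearest genes were Nup35, Pax9, Asf1b, Zfp647 and Klf12, with differences of 0.042 to 0.061. None of these was in the lists of Schwann cell genes. Among the other members S100b was nearest, at 0.168 (rank 973), and Mbp was among the farthest, at 0.488 (rank 14338). With 6 libraries, this likeness is a description.

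Markers of other cell types were summed in each library, and these sums carry no test. Of 19 neuron and axon markers, 17 were analysed and summed to 87.9 to 95.7 CPM in mutants and 73.1 to 81.1 CPM in controls. Most of that sum was Tubb3, a tubulin gene, at 51.9 ± 3.11 CPM in mutants and 44.6 ± 3.76 CPM in controls, and 9 of the 17 were filtered out as low. Calca, the neuropeptide gene of sensory fibres, rose among them, at 3.85 ± 1.32 CPM in mutants and 1.34 ± 0.152 CPM in controls (SD, n = 3 each; log2 fold change 1.52, SE 0.28, adjusted p = 0.0465, edgeR), and its call was lost whichever library was left out, with adjusted p of 0.0520 to 0.149. Of the 8 neuron and axon markers tested, 5 had positive and 3 negative fold changes. Uchl1, a ubiquitin hydrolase gene of neurons named after its values were seen, was lower without overlap, at 4.93 ± 2.29 CPM in mutants and 10.6 ± 1.64 CPM in controls (log2 fold change -1.11, SE 0.34, adjusted p = 0.164, edgeR). Stmn2, a stathmin gene of growing axons, overlapped, at 11.4 ± 4.77 CPM in mutants and 7.38 ± 4.16 CPM in controls. Melanocytes also use Sox10, and 3 of their 7 markers were analysed, summing to 15.1 to 17.7 CPM in mutants and 14.7 to 17.1 CPM in controls. Dct, a melanin enzyme gene, averaged 5.90 ± 1.50 CPM in mutants and 4.76 ± 0.883 CPM in controls, and Mitf 9.59 ± 0.775 CPM in mutants and 9.94 ± 0.972 CPM in controls. Of 6 oligodendrocyte markers, 1 was analysed, at 0.386 to 1.19 CPM in mutants and 0.681 to 2.07 CPM in controls.

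Of the 11 dental epithelium markers, 1 fell, none rose and 10 did not pass. Fold changes were negative for 7 and positive for 4, and 6 overlapped between the groups. Over all tested genes, 1.20% were called lower and 21.3% had groups that do not overlap. The 11 markers summed to 69130 to 115419 CPM in mutants and 179681 to 279132 CPM in controls. The most abundant of them, the enamel protein gene Amelx, fell with a log2 fold change of -1.59 (SE 0.30, adjusted p = 0.0470, edgeR). The call for Amelx was lost whichever library was left out, with adjusted p of 0.0799 to 0.123. The other enamel matrix genes Ambn (log2 fold change -0.78, adjusted p = 0.124, edgeR) and Enam (-0.98, adjusted p = 0.0645), the second of these named after its values were seen, were lower without overlap, and with Amelx they make up most of the sum. Odam, an ameloblast gene also named after its values were seen, had a positive log2 fold change of 0.93 (adjusted p = 0.624) with overlap, which was -0.10 without mutant replicate 3. The 6 follicle and ligament markers summed to 943 to 1122 CPM in mutants and 596 to 742 CPM in controls. Postn (log2 fold change 0.73, adjusted p = 0.0262, edgeR) and Igfbp3 (0.64, adjusted p = 0.0389) rose among them and make up most of the sum. The other 4 did not pass, and of the 6, 5 had positive fold changes and 1 a negative one. Of all tested genes, 0.659% were called higher. The Postn call was kept only without mutant replicate 3 among the 6 fits that left out a library, and the Igfbp3 call in none of them. The 7 immune and osteoclast markers summed to 290.0 to 404 CPM in mutants and 266 to 289.6 CPM in controls, with Cd68, a macrophage gene, the riser (adjusted p = 0.0498, edgeR), lost whichever library was left out, with adjusted p of 0.0879 to 0.147. The 6 endothelial markers summed to 265 to 276 CPM in mutants and 223 to 261 CPM in controls. The part of these cell types in the differences of Sox10, Egr2, Mal, S100b, Mbp and Pmp22 was not tested.

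**Figure D5:**
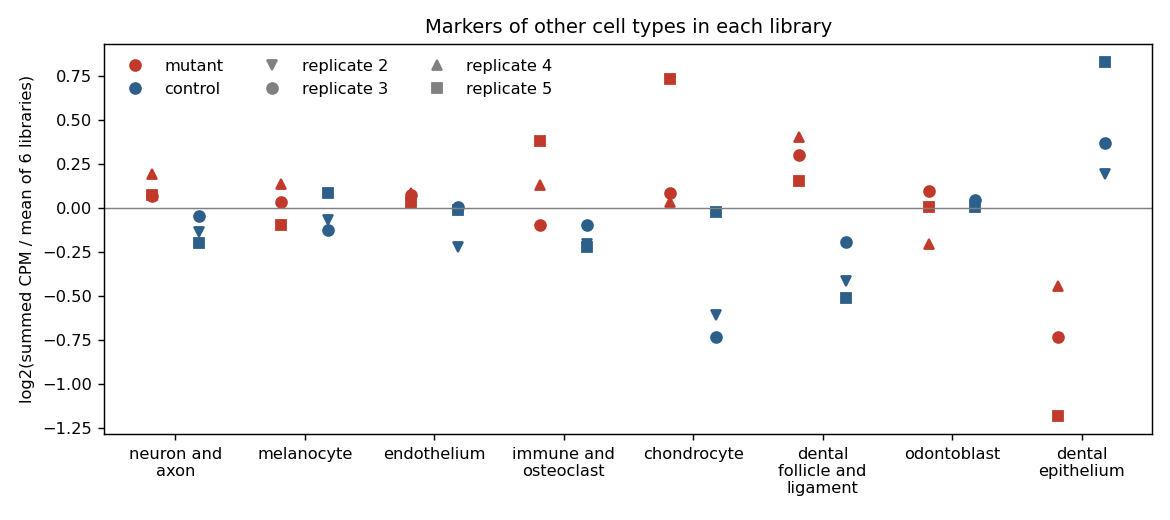
Summed CPM of the markers of 8 other cell types in each library, as log2 of its ratio to the mean of the 6 libraries, with mutants left of controls within each type. The dental epithelium sum, most of it enamel matrix genes, is lower in all mutant libraries. The follicle, chondrocyte, neuron and endothelium sums are higher in all mutant libraries, and so, only just, is the immune and osteoclast sum. The melanocyte and odontoblast sums overlap, and most of the odontoblast sum is Col1a1.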

How the data were processed

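RNA from 6 libraries of apical molar tissue was analysed, 3 mutant and 3 control, grouped by the genotype label, with replicate numbers from the titles. Reads were processed on mm10 in STAR 2.6.1d and Partek, the tools listed, per the submitters' processing notes; which tool did what, the annotation and the strand setting were not given in the sources used here. The authors deposited expected counts per gene, that is, estimated counts, of which 53.8% were whole within 0.001. The authors also deposited a table of normalized signal, used for 1 alternative only.

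Expected counts were rounded to whole numbers, filtered with filterByExpr (17305 genes kept) and scaled by TMM. CPM uses the scaled library sizes. Groups were compared with edgeR 4.0.16 (glmQLFit and glmQLFTest, R 4.3.3) and p-values were adjusted over the whole table by the Benjamini-Hochberg method, with 0.05 as the threshold for a call. Each log2 fold change gives mutant minus control, with an SE obtained as its absolute value over the square root of F. Alternatives used DESeq2 1.42.0 and limma 3.58.1, among others. Libraries of the same group were not copies of each other (chi-square per degree of freedom 24.5 to 45.0). The SE and intervals at low counts limit Egr2 and Mal most.

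The 8 genes and the lists were chosen with earlier results of these data known. From the myelin list, 2 genes are counted but not reported here. Besides the 8, the text draws on the myelin and paralog lists, and from the other lists on called genes and the 2 most abundant (most lists of other cell types are given by sums and called genes only), the 5 genes most like Sox10, and Arid1a; genes outside this rule are marked as named after their values were seen. Start positions are from the deposited table and equal those of GENCODE M21, which gave the ends and exon lengths.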

Additional observations from a re-analysis of the deposited data

How the results depend on the processing

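The directions of Sox10, Egr2, Mal, S100b, Mbp and Pmp22 were the same under all 15 alternatives, which were upper-quartile or RLE scaling, scaling to totals, no filter, CPM of at least 1 in 3 libraries, DESeq2, limma-voom, limma on the normalized table, a block on the replicate number and each of the 6 libraries left out. Over these, log2 fold changes ranged from 0.41 to 0.74 for Sox10, 0.79 to 1.69 for Egr2 and 0.52 to 1.34 for Mal. They ranged from 0.63 to 0.98 for S100b, -0.60 to -0.28 for Mbp and -0.39 to -0.06 for Pmp22. The lower ends for Egr2 and Mal came from the normalized table, on the log2(value + 1) scale. Among the other alternatives the lowest were 1.04 for Egr2 and 0.87 for Mal. Of the 8 genes, 2 were called by DESeq2 (S100b and Egr2), which called 365 genes higher and 504 lower in all, against 114 and 208 by edgeR, and 0 under each other alternative. Library totals alone moved the median of all genes to 0.21, with 411 calls higher and 109 lower. Leaving out a library left 1 to 105 calls higher and 10 to 138 lower over all genes. Of the further Schwann cell and myelin genes, 1 was called higher; the number was 2 with upper-quartile factors, 2 with CPM of at least 1 in 3 libraries, 2 on the normalized table, 4 with library totals alone, 6 with DESeq2 and 0 to 1 with a library left out. The number called lower was 1 with DESeq2 and 0 otherwise.

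Signs changed for 10 named genes, none of them called. Erbb3 ranged from -0.048 to 0.29 with a library left out, and Ngfr from -0.14 to 0.26. Egr1 ranged from -1.76 to 0.96, Egr3 from -0.25 to 0.057 and Mitf from -0.13 to 0.014 with a library left out. Those ranges were -0.42 to 0.42 for Mag, -0.27 to 0.35 for Mall, -0.044 to 0.11 for Id2 and -0.10 to 1.78 for Odam. Mag was -0.080 with limma-voom. With library totals alone, Egr3 was 0.12, Mitf 0.15 and Scd2 0.068. The cause was not tested.

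Numbers 3 and 5 are shared by mutant and control replicates, and the labels do not say that they pair animals. Deviations from the group means correlated at 0.27 for number 3 and -0.14 for number 5. With the replicate block, 19 genes were called higher and 71 lower over all genes, 0 of the 8 members were called, 0 further Schwann cell and myelin genes were called, and the log2 fold change was -0.17 for Erbb3, -0.028 for Ngfr, 0.13 for Egr3, -0.10 for Mall and -0.029 for Id2. The adjusted p with the block was 0.0769 for Arid1a, 0.217 for Srebf2, 0.261 for Adgrg6, 0.0610 for Emp2, 0.254 for Calca, 0.125 for Postn, 0.129 for Igfbp3 and 0.239 for Cd68. Apart from the block and left-out libraries, calls were lost for Srebf2 with library totals alone (0.0810), for Calca with limma-voom (0.0741), for Cd68 with limma-voom (0.0508) and without the low-count filter (0.0545), and for Amelx on the normalized table (0.270).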
